A study of Mus musculus with 2 samples.

Results

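The Myc family comprises Myc, Mycn and Mycl, 3 genes for transcription factors that drive cell growth and division. Pvt1 is a long noncoding RNA gene that lies downstream of Myc. CTCF peaks at these genes were taken from chromatin immunoprecipitation followed by sequencing (ChIP-seq) of limb tissue of mouse embryos at 14.5 days. Every peak of the deposited optimal list was kept whose summit, its highest point, lay in a gene or within 500 kb of either end. Myc and Pvt1 were treated as 1 locus. This rule took 50 of the 49970 optimal peaks, with 8 at the Myc-Pvt1 locus, 10 at the Mycn locus and 32 at the Mycl locus. It used gene positions alone and no signal value. The labels describe 1 group of 2 libraries, replicate 1 and replicate 2, from strain B6NCrl. Both libraries came from limbs that were pulverized and pooled over several dissections, with male and female embryos mixed. No treatment, mutant or other tissue was analysed here, so no test between conditions could be made. The labels number the libraries as biological replicates 1 and 2 but give both the same biosample, so differences between them may be technical. Whole limbs hold many cell types, and a weak peak in all cells cannot be told apart from a strong peak in a few. Tissue markers cannot be checked in lists of CTCF peaks.

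CTCF is a zinc finger protein that binds a long DNA motif and halts cohesin, the ring complex that extrudes chromatin loops. Loops form mostly between sites whose motifs point at each other, called convergent sites. MYC proteins pair with MAX, bind E-box sequences and activate genes of ribosome production, metabolism and the cell cycle. Myc is known for enhancers spread over a large gene-poor interval, and a CTCF site just upstream of its human counterpart has been described as a dock for enhancers. Mycn is expressed in limb bud mesenchyme, and loss of a copy of its human counterpart causes Feingold syndrome, with malformed digits. Mycl was found as an amplified gene in small cell lung cancer. The Pvt1 promoter is known to compete with the Myc promoter for enhancers.

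The sequences on which the results turn are the motif sites at the peaks near the starts of Myc, Mycn and Mycl. For each gene the strongest peak within 5 kb of a transcription start site (TSS) is shown first, as the reference sequence of 101 bases around its site. All sequences are from the mm10 build, 5′ to 3′ on the motif strand. Capitals mark the 20 bases that matched the CTCF motif best.
Myc upstream peak: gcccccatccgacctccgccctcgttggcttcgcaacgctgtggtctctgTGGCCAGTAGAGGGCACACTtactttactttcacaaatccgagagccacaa
Mycn intron peak: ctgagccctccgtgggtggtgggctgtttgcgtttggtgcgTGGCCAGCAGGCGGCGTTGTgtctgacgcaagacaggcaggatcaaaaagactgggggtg
Mycl promoter peak: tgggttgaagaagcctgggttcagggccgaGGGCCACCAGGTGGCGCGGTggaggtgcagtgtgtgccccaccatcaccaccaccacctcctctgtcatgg
The Myc window is chr15:61983378-61983478 on the forward strand, in intergenic sequence 1963 bp before the first Myc TSS. The Mycn window is chr12:12939100-12939200 on the reverse strand, in an intron of Mycn. The Mycl window is chr4:122995448-122995548 on the forward strand, and its summit lies 154 bp before the first Mycl TSS. All 3 motifs therefore point the way their own gene is read, since Mycn itself lies on the reverse strand.

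The remaining sites near a member TSS, and those of the other peaks among the 3 strongest of each locus, are shown as 30 bases with the same use of capitals.
Myc exon peak: gccttTCTCCTTCAGGTGGCGCAAAacttt
Mycn upstream peak: cttggTCTCCGCGAGGTGTCGCCTTcggcc
Mycn peak beside Ddx1: agttcTGTACACTAGGTGGTGCTAGtgtcg
Mycn far downstream peak: gctcaTCTCCAGAAGGTGGCGCTGTgcttt
Mycl peak past Nt5c1a: ctctcCTGCCAGTAGGTGGCACTGCaggct
Mycl 10 kb upstream peak: gattcTGTCCACTAGAGGGAAACCCaggct
The Myc exon site is chr15:61987117-61987146 on the forward strand, in an untranslated part of an annotated Myc exon. The Mycn upstream site is chr12:12942581-12942610, the site beside Ddx1 is chr12:13215082-13215111, and both lie on the reverse strand. The far Mycn site is chr12:12623118-12623147 on the forward strand. The Mycl sites are chr4:123219900-123219929 on the forward strand and chr4:122985282-122985311 on the reverse strand. Of the 10 motif positions that varied least among the peaks used to build the motif, the Mycl promoter site matched 10, the Mycn intron site 9 and the Myc upstream site 8. The Myc peak at the gene's own first exon, and a weak peak 916 bp before the first TSS, held no motif within 50 bp of the summit.

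CTCF peaks clustered at the start of Myc. Myc, at chr15:61985391-61990374 on the forward strand (ENSMUSG00000022346.15), had 4 optimal peaks within 5 kb of its 6 annotated TSSs, in a stretch of 3.73 kb. Of 21938 protein-coding genes, 52% had at least 1 such peak and 3.83% had 4 or more. Signal is the authors' value for a peak, on the scale of its own list, so values compare within a list. The upstream peak, with its summit at 61983428, had a pooled signal of 202, where the median of all optimal peaks was 58.4. Its replicate signals were 114 and 93.4, with a mean of 104 ± 14.8 (SD, n = 2). Here and below, means and SDs are of unscaled values, so an SD also holds any difference in scale between the replicate lists. Both libraries placed it well above their medians of 30.6 and 29.1. It was the strongest of the 8 peaks at the locus and ranked in the top 14.9% of the optimal list. Its summit also lay 126 bp from the TSS of Gm37947, an annotated gene without a described role here.

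The other 3 peaks at Myc were weaker. The summit at 61985614, 8 bp from an annotated Myc TSS and in an untranslated part of an exon, had a pooled signal of 88.1 and replicate signals of 43.7 and 46.3 (mean 45.0 ± 1.81 SD, n = 2). The libraries gave nearly the same value there. The summit at 61987160, in an exon between later TSSs of the gene, had a pooled signal of 69.6, with 27.5 in replicate 1 and 39.9 in replicate 2. Replicate 2 was the higher library at that site, with a log2 difference of −0.61 (replicate 1 minus replicate 2) once each library was scaled by its median over the optimal peaks. Of all optimal peaks in the same decile of signal, 88.6% differed less between the libraries. The weakest, at 61984475, had a pooled signal of 21.2, with 12.8 and 8.26 in the replicates, and was not among the 49970 strongest peaks of replicate 2. Peaks without a motif were common near starts. Among all optimal peaks within 1 kb of any TSS 64.3% held a motif, against 86.4% of those farther away. Of the members, 7 of the 10 peaks within 1 kb of any TSS and 34 of the 40 others held a motif.

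**Figure D1:**
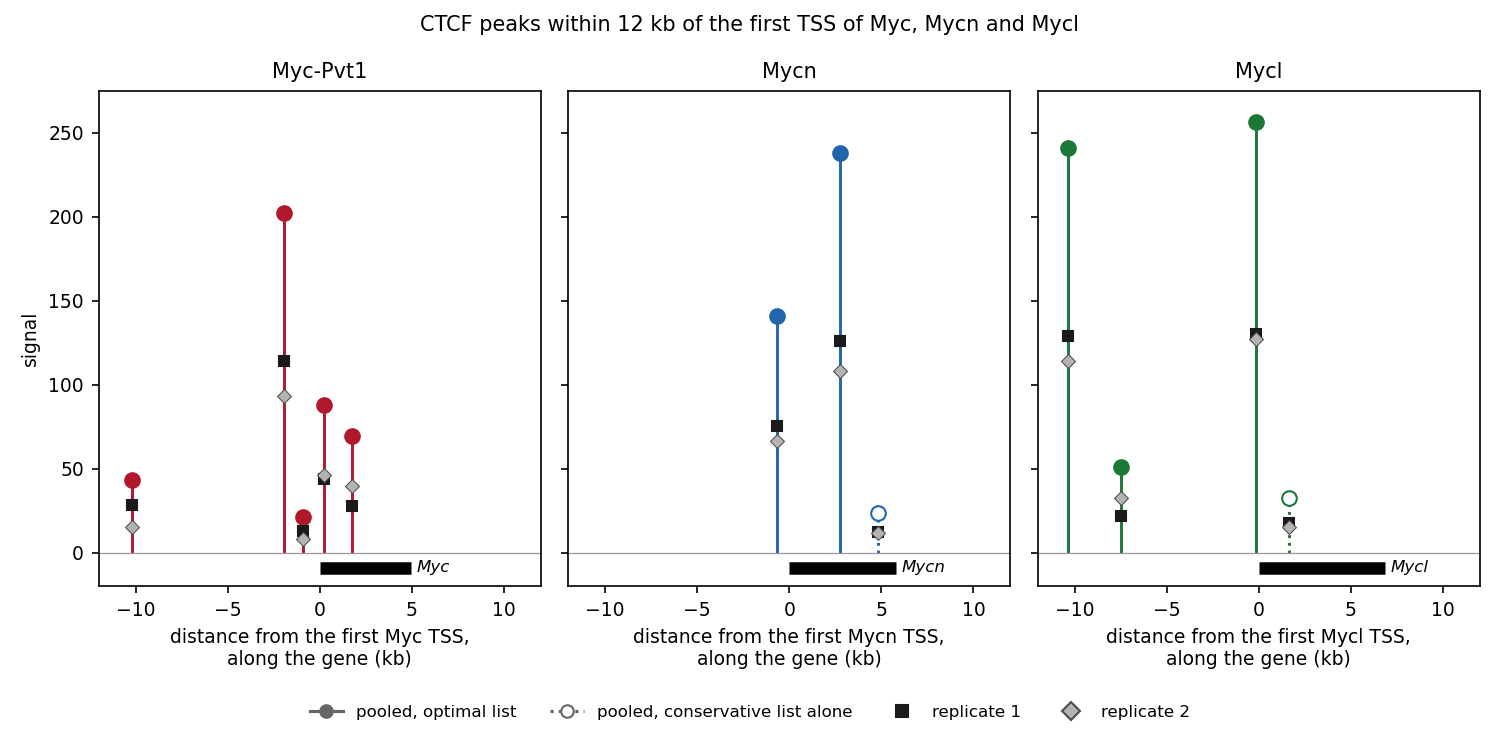
Signal of CTCF peaks within 12 kb of the first TSS of Myc, Mycn and Mycl, by distance along the gene in kb (negative values are upstream). Filled circles are pooled signals of optimal peaks, open circles those of peaks in the conservative list alone, squares replicate 1 and diamonds replicate 2; Myc holds 4 peaks near its start, Mycn 2 and Mycl 1.

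Pvt1 had no optimal peak at its start. The gene lies at chr15:62037986-62378096 on the forward strand (ENSMUSG00000097039.8) and has 10 annotated TSSs. Of 5854 long intergenic noncoding RNA genes, 24.4% had an optimal peak within 5 kb of a TSS, so Pvt1 was with the majority. The nearest optimal summit, at 62137330 in an intron of Pvt1, was 38301 bp from a TSS and had a pooled signal of 25.6, with 8.49 in replicate 1 and 17.3 in replicate 2. Replicate 2 was higher at that peak by a scaled log2 difference of −1.10 (replicate 1 minus replicate 2), the largest difference toward replicate 2 among all members. The peak held no motif, and it was in the strongest 49970 of replicate 2 alone. In the full pooled list, which holds 300000 peaks and so reaches far below the called sites, the strongest entry within 5 kb of a Pvt1 TSS had a signal of 10.7. It had a value of 7.71 in replicate 2 and no summit within 100 bp in replicate 1. The conservative list held a peak in the Pvt1 intron that the optimal list lacked, at 62106791, with a pooled signal of 23.8 and replicate signals of 11.8 and 9.92. It lay 7762 bp from a Pvt1 TSS and had no motif.

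Outside the Myc cluster the locus was sparse. Upstream, a summit at 61975213, 10.2 kb before Myc, had a pooled signal of 43.4, with 28.1 and 15.1 in the replicates. Farther upstream lay 1 more, at 61618774 in an intron of the noncoding gene D030024E09Rik, with 27.3 pooled and 15.4 and 11.2 in the replicates. Both carried a forward motif, as did the 2 motif-bearing peaks at Myc. Downstream of the Pvt1 intron peak the next optimal summit was 666 kb away, at 62803005, and 99.3% of all gaps between consecutive optimal peaks were shorter. It was the weakest peak of the locus, with 19.6 pooled and 7.92 and 11.4 in the replicates, and it held the only reverse motif of the locus. Read along the chromosome, 4 forward motifs were thus followed by 1 reverse motif. At a stricter motif threshold, reached by 1% of windows 1 kb away, the forward sites at 61975213 and 61987160 were not called. The nearest motif-bearing optimal peaks on the 2 sides of Myc, the upstream peak and the distal one at 62803005, formed a convergent pair 820 kb apart. The distal peak was not in the conservative list, nor among the strongest peaks of replicate 1. The peaks that only the conservative list held at this locus, at 62106791 and 62566422, had no motif. In the conservative list the locus thus had no reverse motif and no convergent pair. The conservative summit at 62566422 (14.8 pooled) also lay inside the 666 kb gap. Chromatin contacts were not measured here.

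Mycn carried 2 strong peaks, both with motifs on the gene's own strand. Mycn lies at chr12:12936093-12941914 on the reverse strand (ENSMUSG00000037169.15) and has 3 annotated TSSs. At least 2 peaks within 5 kb of a TSS were found at 24.6% of protein-coding genes. The intronic summit at 12939150, 1466 bp from the nearest TSS, had a pooled signal of 238 and replicate signals of 126 and 108 (mean 117 ± 12.5 SD, n = 2). The upstream summit at 12942597, 683 bp before the first TSS, had a pooled signal of 141 and replicate signals of 75.4 and 66.3 (mean 70.9 ± 6.43 SD, n = 2). At both sites replicate 1 was slightly higher, and the intronic peak was above the upstream peak in both libraries. The intronic peak was thus higher than any peak at Myc. A further summit at 12937089, in an exon of Mycn, was in the conservative list alone, with 23.4 pooled and 12.2 and 11.9 in the replicates.

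The strongest of all 50 members was at the Mycn locus, but not at Mycn. Its summit, at 13215077, lay 1.90 kb past the 3′ end of Ddx1, a gene for an RNA helicase that is often co-amplified with MYCN in neuroblastoma. The pooled signal was 409, rank 220 of 49970, with 207 and 205 in the replicates (mean 206 ± 1.20 SD, n = 2). The libraries gave nearly the same value. This peak held 2 motif hits, both on the reverse strand. The third peak of the locus in strength after it and the intronic one, at 12623127, had 169 pooled and 84.1 and 84.0 in the replicates. It lay in intergenic sequence 317489 bp from the nearest Mycn TSS. The fifth, at 13293710 in an intron of Nbas, which encodes a protein of retrograde transport between Golgi and endoplasmic reticulum, had 78.1 pooled and 39.9 and 36.3 in the replicates.

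The other 5 peaks of the Mycn locus had pooled signals from 25.0 to 36.0. The nearest peak beyond the gene's 5′ side after the upstream peak, at 13009661, had 29.9 pooled with 17.0 and 11.7 in the replicates. The weakest, at 12781729, was also the nearest peak past the 3′ end, 154 kb away, with 25.0 pooled and 12.6 and 10.8 in the replicates. The largest replicate differences of the locus were at weak peaks. At 12561645 replicate 1 had 16.7 and replicate 2 had 8.73, a scaled log2 difference of 0.86. At 13182003 replicate 1 had 13.6 and replicate 2 had 22.8, a scaled log2 difference of −0.82. All 10 peaks of the locus held a motif, 5 on each strand. The outermost member, at 12436555, lay 0.462 kb inside the limit with a signal of 26.4, while a peak 15.1 kb outside it, at 12421009, had 341 pooled and 167 and 173 in the replicates.

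**Figure D2:**
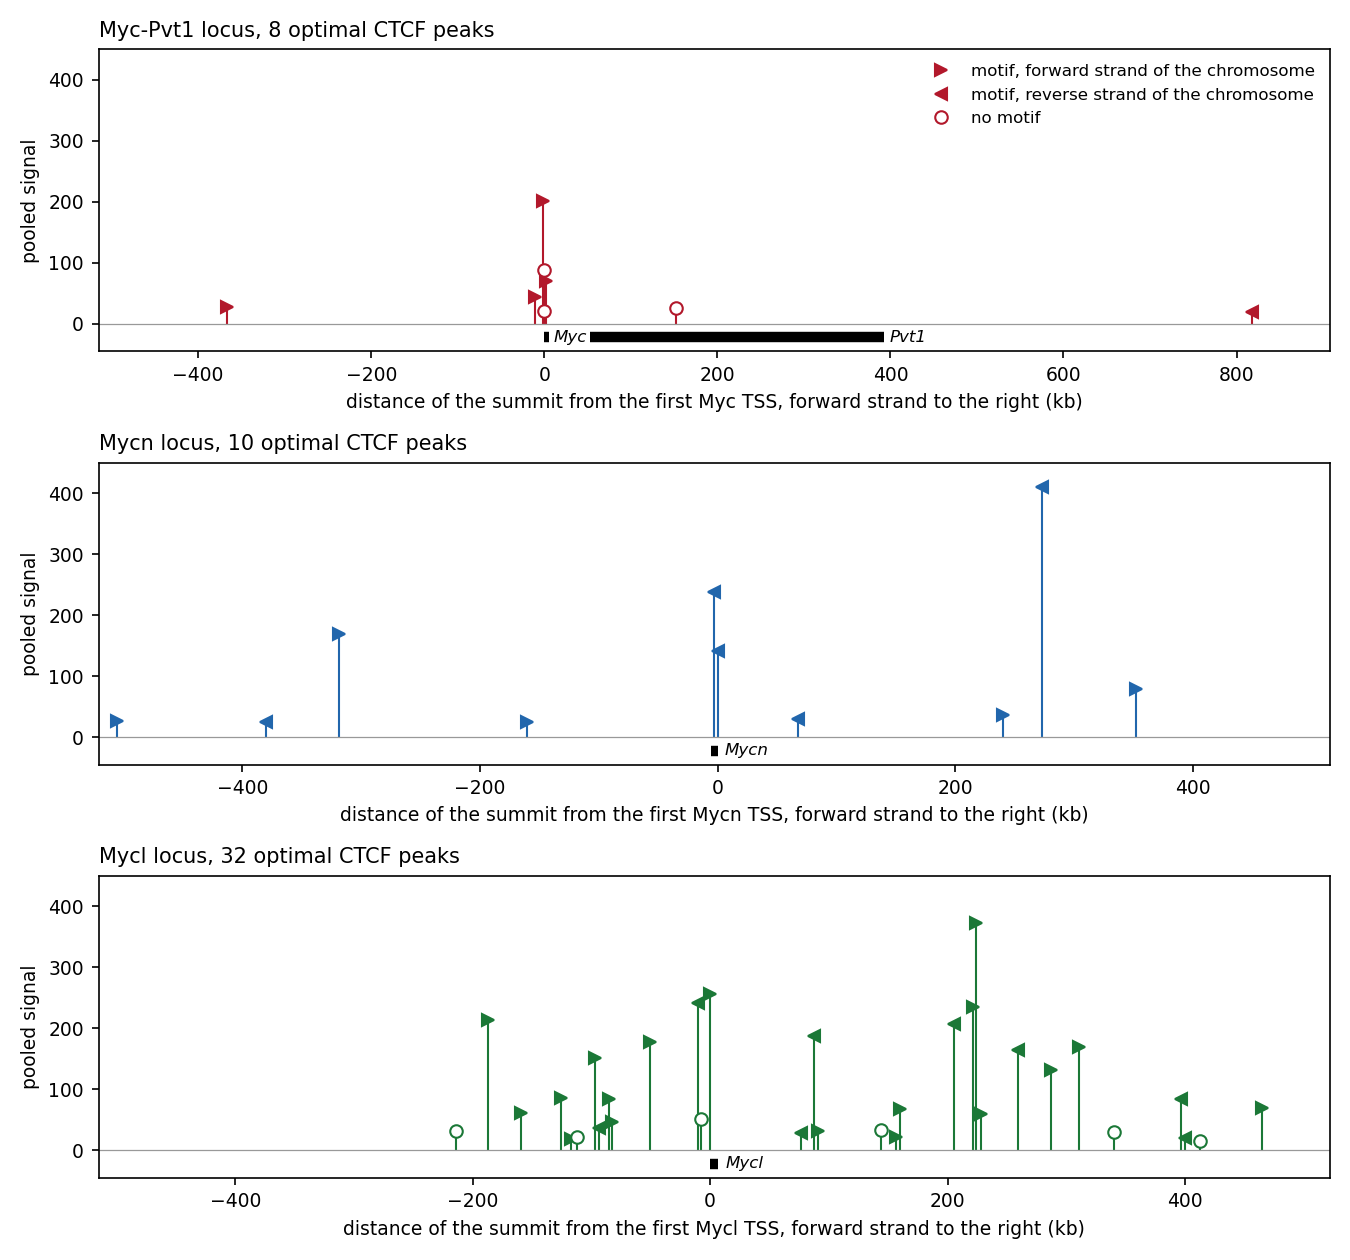
Pooled signal of the 50 member peaks by distance of the summit from the first TSS of Myc, Mycn or Mycl, in kb, with the forward strand to the right. Right and left triangles are peaks with a forward or reverse motif, open circles peaks without one, and black bars the member genes; the Myc-Pvt1 locus has 8 peaks with a gap of 666 kb, Mycn 10 and Mycl 32.

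Mycl had the strongest peak at a member TSS. Mycl lies at chr4:122995652-123002485 on the forward strand (ENSMUSG00000028654.13) and has 5 annotated TSSs, with 1 optimal peak within 5 kb. The promoter summit at 122995498 had a pooled signal of 256 and replicate signals of 130.1 and 127 (mean 128 ± 2.27 SD, n = 2). The 2 libraries were level there once scaled, with a log2 difference of −0.04. A summit at 122997320 in an intron of Mycl, 1221 bp from a TSS, was in the conservative list alone, with 32.6 pooled and 17.7 and 15.1 in the replicates. The conservative list gave 2 peaks within 5 kb of a Mycl TSS in place of 1, and so did the strongest peaks without replicate 1 and those without replicate 2.

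Just upstream of Mycl 2 more peaks followed. The summit at 122988167, 7485 bp before the first TSS, had 51.1 pooled with 21.8 and 32.7 in the replicates and no motif within 50 bp. The summit at 122985288, 10364 bp before it, had 241 pooled with 129 and 114 in the replicates, and its motif lay on the reverse strand. The promoter peak and this one thus formed a divergent pair, 10.2 kb apart, which ranked in the top 8.02% and the top 9.72% of the optimal list. Past the gene the nearest peak was at 123071915, 17.0 kb beyond the 3′ end of Trit1, a tRNA-modifying enzyme gene. It had 29.1 pooled, 12.9 and 15.4 in the replicates, and a reverse motif that faced the motif of the Mycl promoter peak across 76.4 kb.

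The strongest peak of the Mycl window, and others ranking below the promoter peak and the peak 10364 bp upstream, lay beside neighbouring genes. The summit at 123219912 had 372 pooled and 197 and 176 in the replicates (mean 186 ± 15.4 SD, n = 2). It lay 3.64 kb past the 3′ end of Nt5c1a, which encodes a cytosolic nucleotidase, and 13644 bp from the nearest TSS of Heyl, a Notch effector gene. At 123216977, 702 bp past the 3′ end of Nt5c1a, the signal was 234, with 119 and 115 in the replicates. At 123200852, 652 bp before Nt5c1a, it was 208, with 107 and 101 in the replicates. These 3 peaks, 2.94 kb and 16.1 kb apart, were high in both libraries. A summit at 122808320, 27.9 kb before Ppt1, the gene of a lysosomal thioesterase, had 214 pooled and 106 and 105 in the replicates.

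The weakest peaks of the window lay in gene bodies. At 123407983, in a coding exon of Macf1, which encodes a linker of actin and microtubules, the pooled signal was 15.8 with 8.76 in replicate 1 and no summit within 100 bp in replicate 2. At 122878521, in an intron of Cap1, a regulator of actin, it was 19.2 with 13.7 in replicate 1 and again none in replicate 2. These were the only 2 members missing from a replicate list. The largest difference toward replicate 1 was at Ppie, a cyclophilin gene, where the summit at 123139601 had 24.4 in replicate 1 and 8.83 in replicate 2, a scaled log2 difference of 1.39. The largest toward replicate 2 in this window was 1 bp from the first TSS of Ppt1, at 122836241, with 20.6 against 39.5 and a difference of −1.01. Of optimal peaks in the same decile of signal 98.9% differed less, whereas at Ppie the share was 95.8%.

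Replicate agreement followed signal strength. Of the 50 members, 48 had a summit within 100 bp in both replicate lists, where 97.5% of all optimal peaks did. Among the strongest 49970 peaks of both libraries were 40 of 50, beside 81.2% of all. The conservative list held 42 of 50, beside 87.6% of all. The 17 members with a pooled signal over 100 had scaled log2 differences between −0.23 and 0.27. The 31 weaker ones with both values ranged from −1.10 to 1.39. The SD of this difference over all optimal peaks was 0.50. Replicate 1 was higher after scaling in 24 of the 48 and replicate 2 in the other 24.

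**Figure D3:**
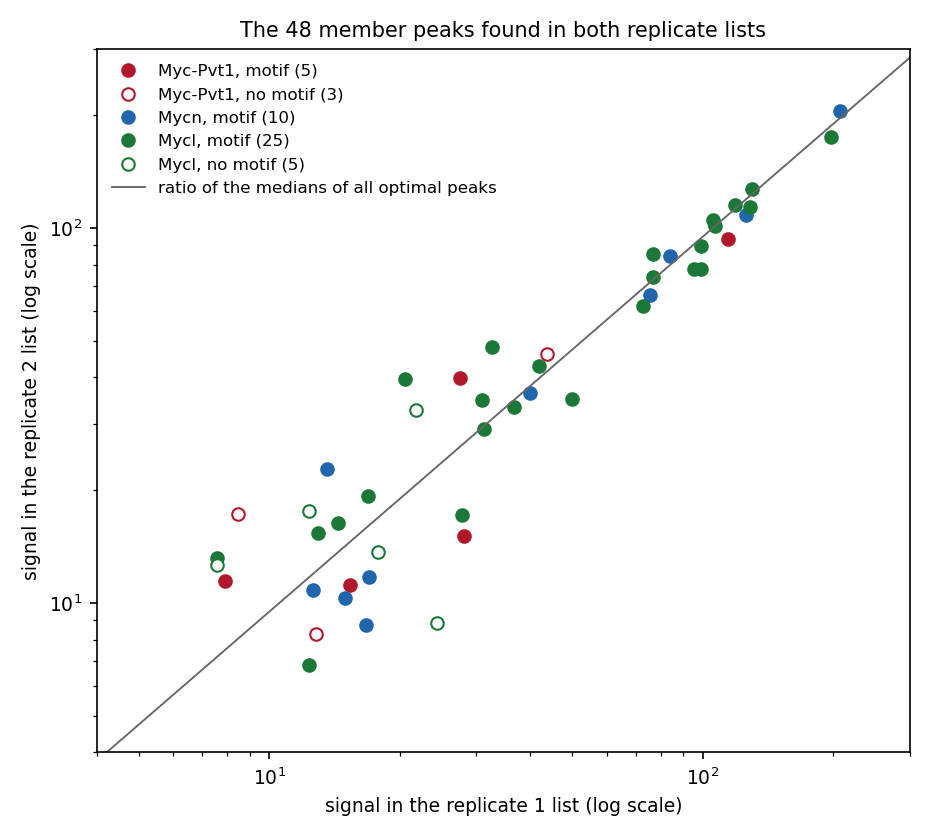
Signal of the 48 members found in both replicate lists, replicate 1 against replicate 2, both on log axes; filled points hold a CTCF motif and open points do not, and the line is the ratio of the libraries' medians over all optimal peaks. Points spread more widely at low signal, from −1.10 to 1.39 in scaled log2 difference at pooled signals up to 100.

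Motif content followed signal strength as well, in the members as in all optimal peaks. A CTCF motif lay within 50 bp of the summit in 41 of 50 members, and in 81.7% of all optimal peaks, at a threshold that 5% of windows 1 kb away reached. The motif was refined on peaks of this list, so that share is no independent check of the CTCF label. The CTCF consensus from which the refinement started, not fitted to these peaks, had an exact match at 10.7% of all optimal summits and in 0.0821% of windows 1 kb away. All 17 members over a signal of 100 held a motif at the 5% threshold. The motif was refined on the strongest peaks of other chromosomes, and the share of all optimal peaks over 100 with a motif is not given here. At a stricter threshold, which 1% of windows 1 kb away reached, 30 of 50 members held a motif. The share over all optimal peaks at that threshold is not given here. Sites lost included those at 12942597 upstream of Mycn (141 pooled) and at 123282637 (132 pooled). The site at 123071915, which faced the Mycl promoter peak, was lost as well. The median signal of members with a motif was 78.1 and without one 30.8, beside 72.0 and 30.1 over all optimal peaks. Motif strands were 27 forward and 14 reverse in the members, where 49.8% of all motif peaks were forward. Most of that lean came from the Mycl window, with 18 forward of 26, and neighbouring sites are not independent.

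Beside the windows of protein-coding genes, peaks were sparse around Myc, Pvt1 and Mycn and near the median density around Mycl. The Myc-Pvt1 window held 5.74 optimal peaks per Mb, and 8.70% of the windows of all 21938 protein-coding genes were lower. The Mycn window held 9.94 per Mb, with 14.1% of windows lower. The Mycl window held 31.8 per Mb, with 55.0% lower, close to the median of 28.9. The quartiles over all genes were 16.3 and 46.5 per Mb. The main chromosomes together held 18.3 per Mb, and chromosomes 15, 12 and 4 held 20.9, 16.4 and 20.8. The Mycl window was above these rates, and the Myc-Pvt1 and Mycn windows were below them. The 3 loci had the same order in gene content. Myc was the only protein-coding gene in its window, Mycn shared its window with Ddx1 and Nbas, and the Mycl window touched 16 protein-coding genes, 7 of them with a peak within 5 kb of a TSS. None of the 4 long intergenic noncoding genes in the Myc-Pvt1 window, and none of the 8 in the Mycn window, had such a peak. Over all genes, 52% of protein-coding and 24.4% of long intergenic noncoding genes had one. The genes in these windows are too few to set the loci apart from those shares.

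**Figure D4:**
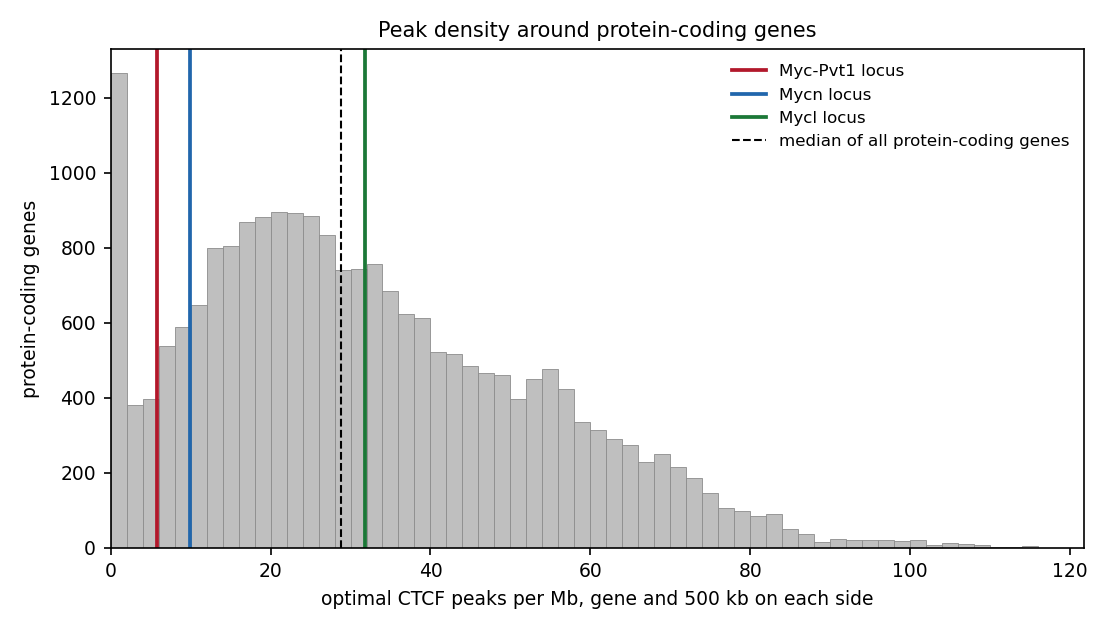
Number of protein-coding genes (y axis) by optimal CTCF peaks per Mb in a window of the gene and 500 kb on each side (x axis). Coloured lines are the Myc-Pvt1 (5.74), Mycn (9.94) and Mycl (31.8) loci, and the dashed line is the median of all protein-coding genes (28.9).

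The median pooled signal was 35.3 at the Myc-Pvt1 locus, 57.0 at Mycn and 68.2 at Mycl, where all optimal peaks had 58.4. The range was 19.6 to 202 at Myc-Pvt1, 25.0 to 409 at Mycn and 15.8 to 372 at Mycl, so the loci overlapped widely. Within 250 kb of the genes the medians were 56.5, 36.0 and 64.3, so that Myc-Pvt1 then stood above Mycn. Above the median of all optimal peaks lay 3 of 8 peaks at Myc-Pvt1, 5 of 10 at Mycn and 19 of 32 at Mycl. With the conservative list the Mycn median fell to 33.4, as the list adds 4 weak peaks and drops 1 there. The 32 Mycl peaks did not fill their window evenly. None lay in the first 286 kb, and the gap to the next optimal summit on that side, across the window's limit, was 1540 kb long. Of that stretch 53.0% was repeat-masked, 4.50% was unassembled, and it touched 4 protein-coding genes.

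A set of member sites shared most of their bases. The sites below were picked after their sequences were seen, to show that likeness, and capitals again mark the motif match.
Mycn locus site at 12781729: ctcaaAGGCCAGAAGAGGGCATCAGatctc
Mycl locus site at 122910750: tatacAGGCCAGAAGAGGGCAGCAGatccc
Mycl locus site at 122912816: catagTGGCCAGAAGAGGGCAGCAGatccc
Mycl locus site at 123086582: cctgcAGGCCACAAGAGGGCACCAGatctc
Mycl locus site at 123392410: cctgcAGGCCAGAAGAGGGCACCAGatcct
The sites lie at chr12:12781717-12781746, chr4:122910737-122910766, chr4:122912805-122912834 and chr4:123086574-123086603 on the forward strand and at chr4:123392405-123392434 on the reverse strand. The last 2 sites had 27 of 30 bases alike, and so had the 2 sites at 122910750 and 122912816. The other pairs among the 5 sites had 23 to 25 alike. Of the 30 bases 20 are the motif match, by which every site was called. The 5 summits were in repeat-masked sequence, in intergenic sequence except that at 123392410 in an intron of Macf1. B2 elements, short repeats of rodent genomes, are known to carry CTCF motifs, but the class of these repeats was not identified here. Of the 40828 motif sites of all optimal peaks, between 1093 and 1967 matched 1 of these 5 sites at 24 or more of 30 bases. Between 90.1% and 92.4% of those lay in repeats. By contrast the sites near the TSSs of Myc, Mycn and Mycl had at most 3 such matches. Most other member sites outside repeats had as few, though the site at 123152188 had 110.

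The pooled signals at these 5 repeat sites ran from 25.0 to 84.7. Replicates 1 and 2 gave 12.6 and 10.8 at the Mycn site, 41.9 and 42.8 at 122910750, 27.8 and 17.2 at 122912816, 14.4 and 16.4 at 123086582, and 49.8 and 35.1 at 123392410. All 5 were present in both libraries, and none reached a pooled signal of 100. In all, 11 of 50 member summits lay in repeats, beside 17.4% of all optimal summits, with 0 at the Myc-Pvt1 locus, 2 at Mycn and 9 at Mycl. Members in repeats had a median pooled signal of 46.5 and a highest value of 85.7. Members outside had a median of 69.6, and the same medians over all optimal peaks were 37.0 and 67.9. Short reads can map poorly to repeats, and the treatment of such reads by the authors is not given in these sources.

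Genes linked to MYC proteins were described from 4 lists. An optimal peak lay within 5 kb of a TSS at 29 of 37 listed genes, or 78.4%, beside the 52% of all protein-coding genes given above. The lists were chosen with earlier results of these data known, so the difference from 52% cannot be read as a trait of MYC-linked genes. Listed genes have many annotated TSSs, and no test was made. In the MAX network, which includes the MYC partner MAX and antagonists of MYC, 8 of 10 genes had such a peak. Mga and Mlx had none. The strongest was at Mxd1, a repressor that competes for MAX, with 276 pooled and 147 and 135 in the replicates. At Mxd3, of the same family, it was 272, with 141 and 131. Max itself had 1 peak, 193 bp from a TSS, with 46.1 pooled, 19.8 and 24.2 in the replicates, and no motif.

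Among 8 cofactors 6 had a peak, and Ruvbl1 and Kat5 had none. Ruvbl2, an AAA ATPase of chromatin remodelling complexes, had the strongest at 376, with 183 and 194 in the replicates. Kat2a, a histone acetyltransferase, had 225, with 123 and 103. Among 7 genes of MYC protein turnover 5 had a peak. Fbxw7, the ubiquitin ligase subunit that marks MYC for degradation, had 120.4, with 57.9 and 61.9 in the replicates. Skp2, another ligase subunit, had 21.9, with 15.3 and 5.77. The 4 peaks other than that at Fbxw7 had pooled signals from 16.1 to 21.9, and the count of 5 fell to 1 in the conservative list and to 3 without replicate 2. The matching shares of all protein-coding genes were 51.6% and 52.4%. Among 12 known targets 10 had a peak, and Cdk4 and Npm1 had none. Ccnd2, a G1 cyclin, had 425, with 228 and 196 in the replicates. Odc1, the polyamine synthesis enzyme and a classic MYC target, had 249, with 126 and 122.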

How the data were processed

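CTCF ChIP-seq of embryonic mouse limb was deposited as 5 peak lists on the mm10 build (2 replicate lists, a pooled, an optimal and a conservative list). Per the labels, each list gives a signal for every peak, and the authors derived the optimal and conservative lists from the replicate and pooled lists. The deposited signal of the optimal and conservative lists was that of the pooled list. Aligner, caller, control, thresholds and normalization are not given in the sources, and read depth is unknown. Members and gene lists were chosen with earlier results of these data known.

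Summits were placed on GRCm38.p6 and GENCODE M21. A replicate value is that of the nearest summit within 100 bp. A motif of 20 bases was refined over 10 rounds on the strongest 1000 peaks of autosomes other than 4, 12 and 15. A hit lay within 50 bp of a summit and reached a score that 5% of windows 1 kb away reached. The steps were tested on simulated data. Python 3.11.15, numpy 2.4.6, pandas 2.3.3 and matplotlib 3.10.9 were used. With 1 group of 2 libraries no test was made, and members are described beside the same measure over all optimal peaks or all genes. The alternatives were other windows, distances, lists, thresholds and single replicates. Peaks named are those within 5 kb of a member TSS, the 5 strongest and the weakest of each locus, the nearest on each side of a gene, and those with the largest and smallest replicate ratio. Of each gene list the 2 members with the highest pooled signal near a TSS are named, among peaks with a summit in both replicate lists, and others named were chosen after their values were seen. Not every listed gene is reported here.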

Additional observations from a re-analysis of the deposited data

How the results depend on the processing

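Of 87 alternative values over 19 results, 58 stayed within the limit set for them and 29 moved. The results are counts, shares and medians, which have no direction that could change. Orders between loci could change, as that of the Myc-Pvt1 and Mycn medians did within 250 kb. The limit was a factor of 1.5 for counts and the spread between the replicates for shares and medians. Windows of 250 kb gave 5 peaks at Mycn. Windows of 1 Mb gave 16 at Myc-Pvt1, 27 at Mycn and 51 at Mycl. The strongest 50% of the optimal list held 3, 5 and 19 peaks at the 3 loci. Near TSSs, Mycn had 1 peak within 1 kb, and Mycl had 2 within 10 kb, 2 in the conservative list, and 2 without replicate 1 and 2 without replicate 2. The share of gene windows with a lower density was 12.2% (250 kb) and 7.50% (1 Mb) at Myc-Pvt1, 15.7%, 19.6% and 18.8% (conservative list) at Mycn, and 73.2% and 45.6% at Mycl. Leaving out a replicate, an alternative chosen after seeing the data, gave 8.46% to 9.62% at Myc-Pvt1 and 18.6% to 20.4% at Mycn. Median signals became 56.5 at Myc-Pvt1 within 250 kb, and 36.0 within 250 kb, 78.1 within 1 Mb and 33.4 in the conservative list at Mycn. Of the 7 MYC turnover genes, those with a peak numbered 1 within 1 kb, 1 in the conservative list, and 4 and 3 without replicate 1 and 2. The matching shares of all protein-coding genes were 33.4% within 1 kb, 51.6% in the conservative list, and 52.4% without either replicate. No paired analysis was possible because the study has 1 group. Depth is unknown, so a site missing from a list was not called there and may still be bound.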

Other observations

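The conservative list held 11 peaks in the 3 windows that the optimal list lacked, with pooled signals from 14.8 to 33.4. Besides those in Mycn, Mycl and Pvt1, they included a summit at 13369039 in an intron of Nbas (22.8 pooled, 10.9 and 10.1 in the replicates) and a summit at 123020053 in an intron of Trit1 (27.1 pooled, 13.9 and 11.4 in the replicates). All 11 had a summit in both replicate lists.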
